A study of Caenorhabditis elegans with 4 samples.

Results

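Chromosome X carried 1156 of the 8006 intervals in the combined list of LIN-39 binding in first-stage larvae of Caenorhabditis elegans, or 14.4% (exact 95% interval 13.7 to 15.2%). These 1156 intervals were chosen by their chromosome alone, without use of their strength or width. Their counterparts in the lists of the separate libraries were 524 X intervals of 3541 in replicate 1 (14.8%) and 268 of 1743 in replicate 2 (15.4%). The data come from chromatin immunoprecipitation and sequencing (ChIP-seq), in which DNA crosslinked to a protein is collected with an antibody and sequenced, and regions rich in reads are listed as intervals.

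LIN-39 is a Hox protein, a DNA-binding regulator that gives cells of the mid-body their identity. It is known for its roles in the vulval precursor cells, in migrating neuroblasts and in ventral cord neurons, and it acts with the cofactors CEH-20 and UNC-62. X is the sex chromosome of this worm. Hermaphrodites have a pair of X chromosomes and males a single copy, and in hermaphrodites the dosage compensation complex binds X and lowers its expression.

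All libraries came from strain OP18, a hermaphrodite strain with the unc-119(ed3) III mutation and the transgene wgIs18. The transgene was introduced by bombardment and holds a functional copy of unc-119 next to lin-39::TY1::EGFP::3xFLAG, which encodes LIN-39 with those tags. Every group carries both the mutation and the transgene. The genotype lists no mutation of lin-39 itself, and the GFP antibody collects the tagged protein only. Larvae were fed L1 animals grown at 20 degrees C and used whole, so each interval sums over all cells of the animal. The groups were 2 ChIP libraries and 2 input libraries of total DNA from the extracts, and the input values were not analysed here. Nothing in the labels says whether the replicates were separate cultures.

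Positions are given on WormBase WS220, counted from 1. Neither the WS220 genome nor its annotation was used, and intervals therefore carry positions without genes or sequences. Each interval has a significance value from the peak caller, and rank 1 is the smallest. Strong and weak refer here to small and large values, which do not measure enrichment alone. The parts of width and depth in a value were not separated. These values are the authors' and serve here to describe and order intervals within a list. No depth is known for any list, and with 1 list per library no test between groups was possible. Exact intervals around shares and medians cover counting error only, since neighbouring regions are not independent.

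Strength on X was spread over a very wide range. In the combined list the values ran from 3.84e-139 to 9.87e-04 with a median of 6.07e-05, and 525 of the 1156 intervals (45.4%) were weaker than 1e-4. In replicate 1 the X values ran from 4.27e-105 to 9.97e-04, and in replicate 2 from 8.88e-71 to 9.99e-04. Values under 1e-20 were found for 54 combined X intervals (4.67%, exact 95% interval 3.53 to 6.05%), against 4.80% of the autosomal intervals. In replicate 1 there were 32 (6.11%, 4.21 to 8.51%, against 3.35%), and in replicate 2 there were 19 (7.09%, 4.32 to 10.9%, against 2.98%). At this limit the X share was near the pooled autosomal share in the combined list and above it in the replicate lists. The exact interval of X overlapped those of all autosomes but I in replicate 1, and of every autosome in replicate 2. Under 1e-10 the X share was 13.4%, 13.9% and 16.8% in the combined, replicate 1 and replicate 2 lists. The autosomal share under 1e-10 was 14.1%, 13.7% and 15.2%.

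The strongest interval on X lay at 14525315 to 14526322 and was 1008 bp wide. Its value was 3.84e-139 in the combined list, 4.27e-105 in replicate 1 and 8.88e-71 in replicate 2. It was first among X intervals in all 3 lists, and the edges in the replicates were 14525334 to 14526320 and 14525307 to 14526270. Second in all 3 lists was 11093557 to 11094419, an interval of 863 bp. Its values were 2.32e-121 in the combined list, 1.69e-95 in replicate 1 and 1.24e-60 in replicate 2. The next positions changed places between the replicates. The interval at 2996256 to 2997773 was 1518 bp wide, had a combined value of 2.54e-108 and ranked 4 on X in replicate 1 and 3 in replicate 2. The interval at 13700137 to 13701263 was 1127 bp wide, had a combined value of 3.75e-99 and ranked 3 on X in replicate 1 and 6 in replicate 2.

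The remaining members of the 15 strongest X intervals had combined values from 2.71e-97 to 1.13e-64. The interval ranked 5, at 6740510 to 6744740, was divided in the replicates and is described separately. At 12362713 to 12363461 the values were 1.13e-90 in the combined list, 1.23e-63 in replicate 1 and 2.90e-55 in replicate 2. At 11605262 to 11607559 they were 1.58e-90, 3.87e-62 and 1.85e-40 in the same order of lists. Replicate 1 had the smaller value of the replicates at each of these sites, and this held for all 15. The depth of neither library is known, so this is not read as a difference in binding at these sites. At 8035704 to 8036984 the combined value was 8.40e-88, with X ranks of 7 and 7 in replicates 1 and 2. At 9465366 to 9466180 it was 2.02e-86, with X ranks of 8 and 5. The 6 sites that followed had X ranks of 9 to 15 in both replicates. From left to right along X these were 806214 to 806993 (value 1.71e-71), 1503689 to 1505373 (1.67e-79), 4208582 to 4209773 (1.76e-71), 6296205 to 6297098 (9.08e-73), 11937079 to 11937852 (1.13e-64) and 16056194 to 16056775 (3.67e-74). Widths over the 15 ran from 582 to 4231 bp with a median of 1008 bp. All 15 overlapped both replicate lists, and 14 of them met exactly 1 interval in each. In these 14 the replicate midpoints were 9 to 257.5 bp apart, with a median of 37.5 bp. Each of these distances was smaller than the narrowest of the 15 intervals.

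The interval at 6740510 to 6744740 was the exception among the 15. It was the widest on X, at 4231 bp, and ranked 5 on X in the combined list, but it was divided in both replicates. Replicate 1 had intervals of 2057 and 1546 bp there, which ranked 22 and 18 on X, and replicate 2 had intervals of 2488 and 1042 bp, which ranked 16 and 30. Of the 5 widest X intervals, 4 met more than 1 interval in at least 1 replicate, and these 4 ranked higher on X in the combined list than any of their pieces did in the replicates. At 6251978 to 6256189, 4212 bp wide and ranked 16 on X in the combined list, replicate 1 had 2 intervals and replicate 2 had 3. At 16928675 to 16931920, 3246 bp wide and ranked 17, each replicate had 2. At 4140187 to 4143197, 3011 bp wide and ranked 21, replicate 1 had a single interval and replicate 2 had 2. The fifth widest, 11605262 to 11607559 with 2298 bp, met a single interval of 1250 bp in replicate 1 and of 1457 bp in replicate 2. Such division was rare on X as a whole, with 7 combined intervals that met 2 intervals of replicate 1 and 4 that met 2 or 3 of replicate 2. Division was not counted on the autosomes, so nothing particular to X is read from it.

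Strong X intervals were crowded at the very top of each list. Of the 30 strongest intervals of the whole combined list, 18 lay on X (60%, exact 95% interval 40.6 to 77.3%), and of those ranked 31 to 100, 6 did (8.57%, 3.21 to 17.7%). The shares were 15 of 30 and then 10 of 70 in replicate 1, and 16 of 30 and then 10 of 70 in replicate 2. Beyond rank 100, X held 14.3% of the combined intervals, 14.5% of replicate 1 and 14.7% of replicate 2. When each whole list was divided into 10 equal groups by value, the X share was 12.9 to 16.8% in the combined list, 11.3 to 16.1% in replicate 1 and 10.3 to 20% in replicate 2. The limit of 30 was chosen after the order had been seen, and these shares are given as a description. Values under 1e-40 were held by 24 X intervals among 91 in the combined list, 15 among 22 in replicate 1 and 7 among 13 in replicate 2. These were 2.08%, 2.86% and 2.61% of the X intervals, against 0.978%, 0.232% and 0.407% of the autosomal intervals. The exact interval of X lay above that of the pooled autosomes in each list. For single autosomes, it overlapped all but I in the combined list, none in replicate 1 and every one in replicate 2. In replicate 1 the 15 X intervals under 1e-40 were those among the 30 strongest. The same top intervals enter both counts, so the limit of 1e-40 is not separate support.

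**Figure D1:**
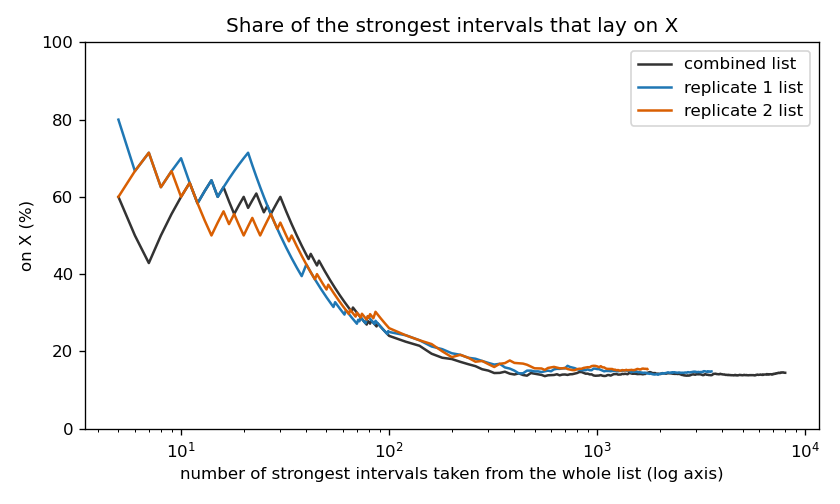
Share of intervals on X (y axis, %) among the strongest intervals of the whole list (x axis, number taken, log scale), for the combined list and both replicate lists. All 3 lines start at 60% or more for the 5 strongest intervals and fall to between 14 and 16% when the whole list is taken.

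The replicate lists were compared with the combined list on X to see which members each library held. Of the 1156 combined X intervals, 182 overlapped both replicate lists by 1 bp or more (15.7%, 13.7 to 18.0%), against 15.7% of all combined intervals. Replicate 1 alone was met by 285 (24.7%, against 24.2% of all) and replicate 2 alone by 65 (5.62%, against 4.72%). The other 624 met neither list (54.0%, 51.1 to 56.9%, against 55.4%). These X shares were near those of the whole list, and nothing particular to X is read from them.

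Overlap with the replicates went with strength. The 72 strongest combined X intervals all overlapped both lists, and the 239 strongest all overlapped at least 1 of them. Such counts were not made for the autosomes. In 5 equal rank groups of the X intervals, from strong to weak, 72.0%, 5.63%, 0.866%, 0% and 0% overlapped both. For the 231 intervals of each of the last 2 groups, the exact 95% upper bound for a count of 0 is 1.58%. The share that met neither list was 0%, 29.4%, 63.2%, 84.0% and 93.5% in the same order. The autosomes showed a like fall when both sets were placed in 5 rank groups of the whole combined list. Overlap with both lists was 73.1% on X and 73.4% on the autosomes in the strongest group, and 6.48% and 4.40% in the next. Overlap with neither was 0%, 26.9%, 59.7%, 82.9% and 93.0% on X and 0.509%, 33.7%, 67.0%, 84.3% and 93.7% on the autosomes. The fall with rank is therefore not read as a property of X. On X, replicate 1 alone was most frequent in rank group 2, at 47.2%.

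**Figure D2:**
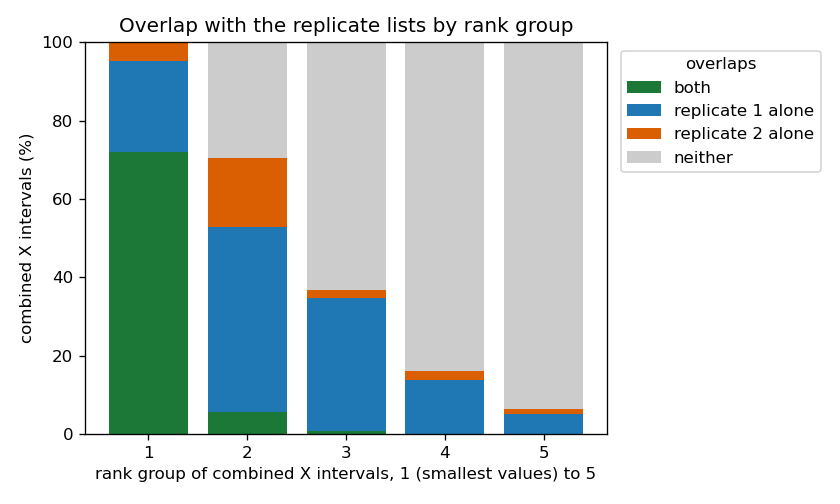
Combined X intervals in 5 equal rank groups (x axis, strongest first), with the share of each group (y axis, %) that overlaps both replicate lists, replicate 1 alone, replicate 2 alone or neither. Overlap with both lists makes up 72.0% of rank group 1, and overlap with neither makes up 93.5% of rank group 5.

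Width went with overlap as well. Combined X intervals that overlapped both lists had a median width of 678.5 bp (exact 95% interval 614 to 780 bp), and those that met neither had 225 bp (199 to 248 bp). Of the 145 X intervals at least 800 bp wide, 73 overlapped both lists (50.3%) and 25 met neither (17.2%). Of the 166 under 100 bp, 0 overlapped both, with an exact 95% upper bound of 2.20%, and 145 met neither (87.3%). A wide interval has more room to overlap, and the parts of width and strength were not separated. These width groups were not compared with the autosomes.

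The strongest X intervals that met neither replicate list were at 13730053 to 13730826 (774 bp, value 5.21e-08, rank 240 on X), 14101487 to 14102358 (872 bp, value 8.54e-08, rank 254) and 3047934 to 3049527 (1594 bp, value 8.59e-08, rank 255). All were wider than the median X interval and lay in the second of the 5 rank groups.

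Between the replicates, 186 of the 268 X intervals of replicate 2 overlapped replicate 1 (69.4%, exact 95% interval 63.5 to 74.9%), against 73.8% of all replicate 2 intervals. From the other side, 187 of the 524 X intervals of replicate 1 overlapped replicate 2 (35.7%, 31.6 to 39.96%), against 36.2% of all. The interval around each X share contains the share of the whole list. The strong X members were shared without a break down to rank 52 on X in replicate 1 and rank 74 in replicate 2. No such count was made for the autosomes, so it is not read as a property of X.

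The first unshared X interval of replicate 1 lay at 14508610 to 14509172, with a value of 1.02e-13, and its nearest replicate 2 interval was 2457 bp away. The others fixed for naming were 7181287 to 7182199 (2.33e-11) and 325059 to 326528 (2.61e-11), with 11633 and 26583 bp to the nearest replicate 2 interval. In replicate 2 the unshared intervals with the smallest values were 2688483 to 2688873 (3.15e-08), 4307714 to 4308464 (7.12e-07) and 10245428 to 10246096 (7.88e-07). Their distances to replicate 1 were 1023, 13190 and 85010 bp. All 6 had an interval in the combined list, at X ranks from 73 to 282.

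Where X regions were shared one to one, the order of strength was similar. Over 177 such pairs Spearman's rho between the replicate values was 0.74, and it was 0.63 to 0.72 on the 5 autosomes. These points share the same pair of libraries, and rho is given as a description. Of these pairs, 14 were among the 15 strongest X intervals of both replicates, and 37 were among the 50 strongest of both. Regions where an interval met more than 1 interval of the other replicate do not enter these counts. The order was looser among weaker pairs, with a rho of 0.92 over the 25 strongest pairs by replicate 1 and 0.45 over the 127 pairs left without the 50 strongest. Midpoints of the 177 pairs were a median of 53.5 bp apart, and 126 pairs (71.2%) were within 100 bp. The autosomal pairs were close to this, at 58.5 bp and 69.3%.

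**Figure D3:**
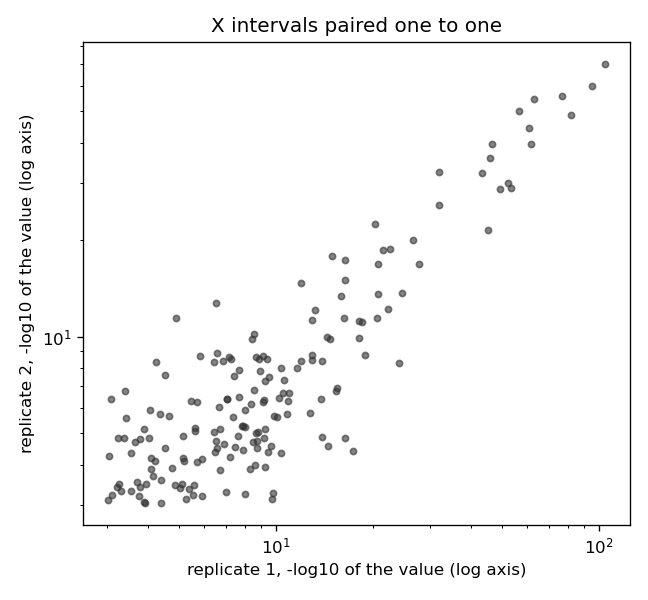
X intervals paired one to one between the replicates, with −log10 of the authors' value in replicate 1 (x axis, log scale) and in replicate 2 (y axis, log scale), 1 point per pair. The 177 points lie close to a line at the strong end and scatter more at the weak end, with rho = 0.74 over all pairs.

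The edges of combined and replicate intervals on X were also set side by side. Over 460 one-to-one pairs with replicate 1, the combined interval had a median width of 504.5 bp and its partner 441.5 bp. Over 243 pairs with replicate 2 the medians were 614 and 486 bp. The replicate interval lay wholly inside the combined one in 51.7% and 70.0% of these pairs, against 51.7% and 64.4% on the autosomes. The autosomal median widths were 431 and 380 bp with replicate 1, and 524 and 422 bp with replicate 2. Some replicate X intervals were missing from the combined list, 50 in replicate 1 (9.54%) and 16 in replicate 2 (5.97%), so 474 (90.5%, against 90.7% of all replicate 1 intervals) and 252 (94.0%, against 95.5% of all replicate 2 intervals) were present. The missing ones ranked 229 or weaker on X in replicate 1 and 184 or weaker in replicate 2, and 0 of them overlapped the other replicate.

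X intervals had a larger median width than the pooled autosomal intervals. The median width was 347.5 bp on X (exact 95% interval 332 to 372 bp) and 277 bp on the 5 autosomes together (267 to 285 bp) in the combined list. In replicate 1 it was 420.5 bp (399 to 445 bp) against 364 bp (355 to 372 bp), and in replicate 2 it was 482 bp (452 to 523 bp) against 422 bp (407 to 433 bp). Chromosome I was close to X, with medians of 338, 408 and 498.5 bp in the same lists, and was the wider of the pair in replicate 2. Chromosome III was at 332 bp (309 to 351 bp), 382 bp (366 to 402 bp) and 441 bp (407 to 481 bp), and its exact interval overlapped that of X in each list. Chromosome II was at 287 bp (266 to 312 bp), 389 bp (356 to 403 bp) and 422 bp (408 to 444 bp). Its interval overlapped that of X in replicate 1 only. IV and V had the smallest medians in the combined list, at 236 and 227.5 bp, and their intervals lay below that of X in all 3 lists. The difference from the autosomes was also seen within groups of like rank by value. In all 5 rank groups of each whole list the X median was above the autosome median, for example 723 against 576 bp in the strongest group and 183 against 138 bp in the weakest group of the combined list. In 4 of these 15 groups the exact interval of the X median contained the autosome median. They were the weakest group of replicate 1 (186 to 307 bp, autosomes 189 bp) and groups 2, 3 and 5 of replicate 2 (468 to 606 bp with 475.5 bp, 390 to 556 bp with 418.5 bp, and 265 to 365 bp with 311 bp). No test of the difference between chromosomes was made, since the intervals of a list share 1 library.

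**Figure D4:**
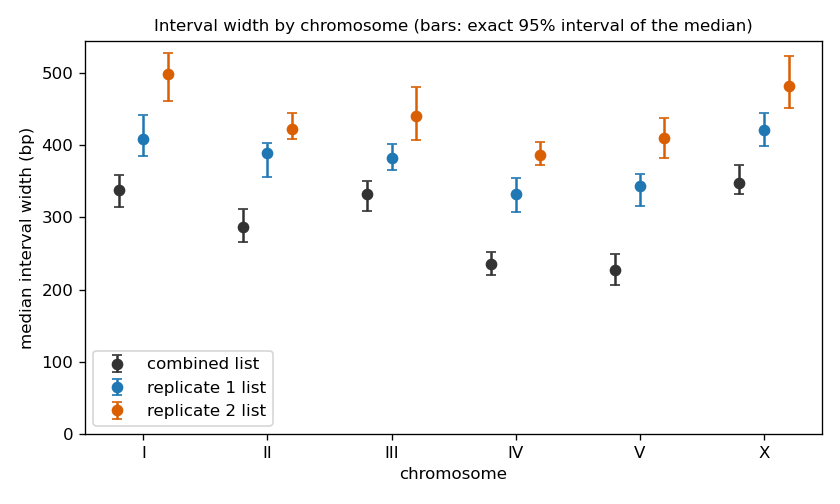
Median interval width (y axis, bp) on each chromosome (x axis) in the combined list and both replicate lists, with exact 95% intervals of the median as bars. X has the highest median in the combined list and replicate 1, and chromosome I is higher in replicate 2. The bars of X overlap those of chromosomes I and III in every list and that of II in replicate 1.

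At the extremes of width, 8 combined X intervals (0.692%, against 0.526% on the autosomes) were at least 2000 bp wide. Of these, 7 overlapped both replicate lists and 1 met neither. At the other end, 102 of 1156 (8.82%) were under 50 bp, against 728 of 6850 (10.6%) on the autosomes. Only 2 bp long were 6 on X and 33 on the autosomes. Of the 102 on X, 91 met neither list (89.2%) and 0 overlapped both. Overlap at these widths was not compared with the autosomes. The X intervals covered 496939 bp in the combined list, 249831 bp in replicate 1 and 148965 bp in replicate 2, or 2.81%, 1.41% and 0.842% of X up to the last interval end at 17685216.

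Position along X was described with 10 equal bins of 1768522 bp, numbered from the left end. The right end was the denser one. Bins 8 to 10 together held 403 of the combined X intervals (34.9%, exact 95% interval 32.1 to 37.7%), 190 in replicate 1 (36.3%, 32.1 to 40.5%) and 109 in replicate 2 (40.7%, 34.7 to 46.8%), where an even spread gives 30%. Among intervals that overlapped both lists the share was 41.2% (34.0 to 48.7%), and among those that met neither it was 32.5% (28.9 to 36.4%). Bin 3 was a further dense bin, with 143, 56 and 32 intervals in the combined, replicate 1 and replicate 2 lists. In these 4 bins every list held more than 10% of its X intervals, and in the other 6 every list held less. Most replicate X intervals overlap the combined list, so the 3 lists are not separate support. For the dense bins the exact interval contained 10% in bins 3, 8, 9 and 10 of replicate 1. It also did so in bins 3, 8 and 9 of replicate 2 and in bins 9 and 10 of the combined list. Position was not compared with the autosomes. The grouping of bins 8 to 10 was made after the counts had been seen.

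The fewest combined intervals were in bin 7, with 89, and the fewest in each replicate were in bin 6, with 38 and 16. The 15 strongest X intervals were present in all 10 bins, and bin 7 held 4 of them, at 11093557, 11605262, 11937079 and 12362713. Bins 8 to 10 held 3 of the 15 (20%, 4.33 to 48.1%), 17 of the 50 strongest (34%, 21.2 to 48.8%) and 92 of the 232 intervals of rank group 1 (39.7%, 33.3 to 46.3%). Each of these intervals contains the 34.9% of all combined X intervals. The middle 33.3% of X held 29.1% of the combined intervals (26.5 to 31.8%), 28.1% of replicate 1 and 26.1% of replicate 2. The left and right parts of equal length held 33.5% and 37.5% of the combined X intervals.

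**Figure D5:**
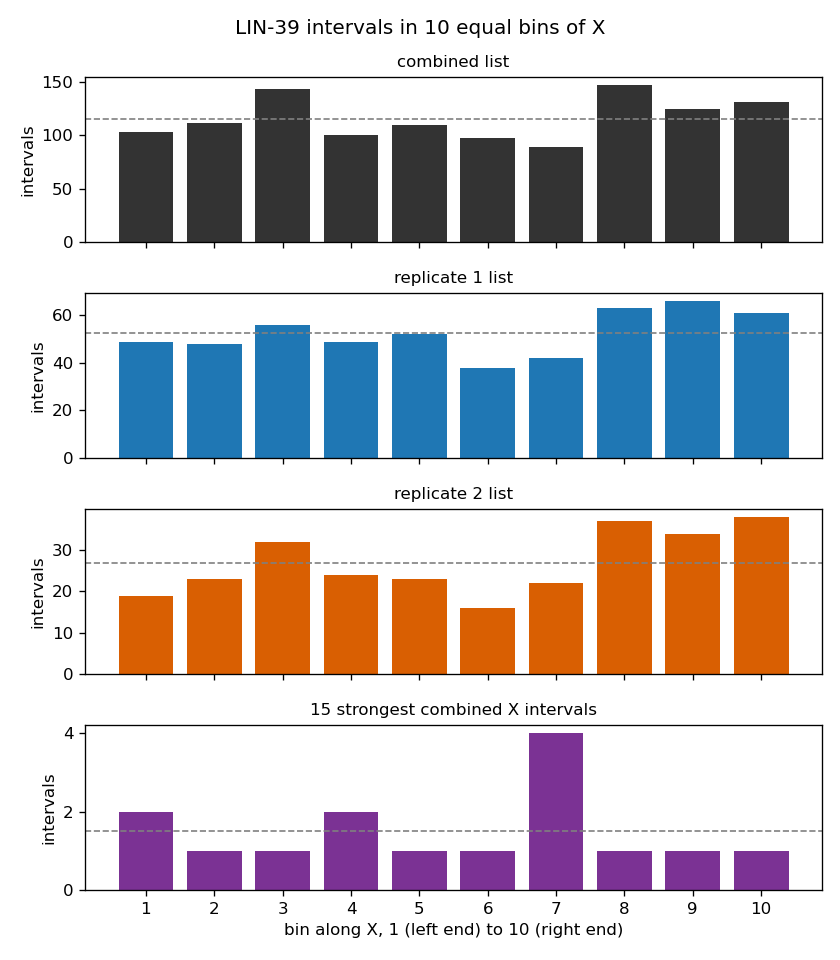
Number of intervals (y axis) in 10 equal bins along X (x axis, left to right) for the combined list, both replicate lists and the 15 strongest combined X intervals, with dashed lines at an even spread. Bins 3, 8, 9 and 10 lie above the dashed line in all 3 lists, and the 15 strongest intervals have their highest count, 4, in bin 7.

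X and III had the longest median gaps in the combined list. The median gap between neighbours was 7607 bp on X (exact 95% interval 6663 to 8451 bp), 7318 bp on III (6560 to 8276 bp) and 4554 to 5852 bp on I, II, IV and V. X and III cannot be ordered, because their intervals overlap. The interval of III also overlapped that of I (5294 to 6588 bp). In replicate 1 the median gap was 17232 bp on X and longest on III, at 19208 bp. In replicate 2 it was 36362 bp on X, 42539 bp on III and longest on I, at 48780 bp. The exact interval of X was 14772 to 20814 bp in replicate 1 and 29248 to 44255 bp in replicate 2. In both replicates it overlapped those of all autosomes but IV. Gaps under 1 kb made up 134 of 1155 on X (11.6%, 9.81 to 13.6%) in the combined list, 33 of 523 in replicate 1 (6.31%) and 13 of 267 in replicate 2 (4.87%). In the combined list the share was 10.2% on III and 15.2 to 18.1% on I, II, IV and V. The autosomes ranged from 5.69 to 9.04% in replicate 1 and from 4.28 to 9.64% in replicate 2.

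Neighbours less than 1 kb apart formed 112 runs on X with 246 intervals (21.3%), of which 93 were pairs, 16 held 3 intervals and 3 held 4. The runs of 4 differed in strength and in their overlap with the replicates. At 17418917 to 17422848 the members ranked 47 to 759 on X, and 2 of them overlapped both replicate lists. At 8015217 to 8017636 the members ranked 555 to 1138, and 1 met replicate 1. At 4893141 to 4896501 all 4 met neither replicate list, although they ranked from 286 to 1028 and were up to 947 bp wide. Close neighbours were found at all strengths, with 17.7 to 24.2% of each rank group within 1 kb of another X interval and no order from strong to weak. Neither the runs nor these shares were compared with the autosomes.

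The longest stretches of X without a combined interval were 144781 bp at 1671481 to 1816261, 130551 bp at 9094290 to 9224840 and 116656 bp at 15866428 to 15983083. The first held 0 intervals of either replicate, and the other 2 held 1 interval of replicate 1 and 0 of replicate 2 each. The last of them lies in the dense right end and runs from bin 9 into bin 10.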

How the data were processed

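Interval lists were used for ChIP replicates 1 and 2, grouped by their titles, and for the whole series (the combined list). Per the labels' protocols, larvae were fixed with 2% formaldehyde, treated with 100 mM Tris and sonicated before collection of chromatin with anti-GFP antibodies. PeakSeq is the source of the intervals and WormBase WS220 the build, per the file headers and columns. The significance of each interval, as deposited, is a PeakSeq p-value (or a q-value, since the files do not say which) and is under 0.001 throughout. The aligner, the control, the PeakSeq settings and any pooling of reads are not stated in the sources used. The number of intervals depends on depth, which is unknown.

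Overlap meant at least 1 bp shared, and X ran from 1 to the largest interval end in any list, since the files give no length. Shares have exact Clopper-Pearson 95% intervals, medians exact intervals from binomial order statistics, and no p-values were computed. The members, lists and measures were chosen with earlier results of these data known. Named intervals were the 15 strongest and 5 widest combined X intervals, the 3 strongest unshared X intervals of each replicate, the 3 strongest that met neither replicate, the 3 longest empty stretches and the 3 largest runs. Alternatives were other overlap rules, the stronger 50% of each list, intervals of at least 50 bp, a single replicate list, covered bases, another X start and a gap limit of 2 kb. Overlap counting was tested on simulated data. Calculations used Python 3.11.15, scipy 1.17.1 and numpy 2.4.6, and plots used matplotlib 3.10.9.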

Additional observations from a re-analysis of the deposited data

How the results depend on the processing

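Of 39 alternative values for 8 results on X, 14 stayed within the error of the value reported and 25 moved outside it. The cause was not tested unless the construction shows it. Some alternatives could move a share in a single direction only, such as a gap limit of 2 kb or reciprocal overlap of 50%. Leaving out a replicate replaced overlap with both lists by overlap with the list that remained. For width, position and gaps, the remaining replicate list took the place of the combined list. The counts of 14 and 25 are therefore not a measure of robustness. Reciprocal overlap of 50% gave shares of 12.8% (both lists), 58.5% (neither), 30.5% (replicate 1 in replicate 2) and 59.7% (replicate 2 in replicate 1). Midpoints within 200 bp gave 13.5% for both lists and 30.5% and 59.7% between the replicates. In the stronger 50% of each list, which holds fewer intervals, the share was 20.0% for both lists, 46.2% and 84.8% between the replicates, 23.7% in the middle 33.3% of X and 6.61% for gaps under 1 kb, with a median width of 518 bp. With intervals of at least 50 bp, 50.8% met neither list and the median width was 385 bp. Without replicate 1 or replicate 2, the share with full overlap was 21.4 to 40.4%, the share with none 59.6 to 78.6%, the middle share 26.1 to 28.1%, the median width 420.5 to 482 bp and gaps under 1 kb 4.87 to 6.31%. Gaps under 2 kb made up 22.6%.

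No paired analysis was possible because the results come from interval lists of the ChIP libraries alone. Genes, genomic features and sequences were not analysed here. Depth is unknown, so a region in 1 list cannot be called absent from the other library.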

Other observations

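The deposited peak numbers of X intervals did not follow the order of their values exactly. The number differed from the rank by value for 892 of the 1156 combined X intervals, 355 of 524 in replicate 1 and 145 of 268 in replicate 2. The largest differences were 176, 61 and 15 places. The ranks given here are by value.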
